A study of Mus musculus with 6 samples.

Results

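The genes described here are 10 plasma membrane amino acid transporters that activated T cells use, Slc7a5, Slc3a2, Slc7a11, Slc1a5, Slc1a4, Slc38a1, Slc38a2, Slc7a1, Slc7a6 and Slc43a1. They were chosen by name, with earlier results of these data known. All 10 were found among the 31017 genes of the count table and passed the filter on low counts that left 14268 genes for testing. RNA was sequenced from mouse Th17 cells, the helper T cells that make interleukin 17, which had been differentiated in culture. The control group (genotype WT) and the RTF1-deficient group (genotype KO) held 3 libraries each, with replicate numbers 1, 2 and 3 in both. Strain, age, time in culture, and how and in which cells Rtf1 was deleted are not given in the sources used here. RTF1 works with the PAF1 complex, which travels with RNA polymerase II along genes, and promotes the ubiquitination of histone H2B.

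Amino acids cannot cross the plasma membrane unaided, and a dividing T cell imports them through carriers of the solute carrier (SLC) families. Some carriers are pairs of proteins: the heavy chain SLC3A2, also known as CD98, is linked to a light chain of the SLC7 family and brings it to the cell surface, while the light chain selects the amino acid. Activated T cells are known to raise several of these transporters, and leucine import through SLC7A5 feeds the kinase complex mTORC1. When amino acids are scarce, the transcription factor ATF4 accumulates and binds amino acid response elements in the genes of several transporters.

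Rtf1 itself, the check of the labels, held 94.0, 91.2 and 88.3 CPM (counts scaled to a common library total with TMM factors) in control replicates 1, 2 and 3, against 45.3, 30.4 and 26.2 CPM for KO in the same order, a log2 fold change of −1.42 (SE 0.191, edgeR quasi-likelihood test, adjusted p = 0.000755). Total counts ran from 16489813 to 51271226 per library. T cell genes were present in every library: Cd4 lay between 443 and 539 CPM in control and between 218 and 290.3 in KO, and Cd3e between 179.7 and 209 in control and between 289 and 347 in KO. Of the 9 T cell and Th17 markers 5 were called lower and 2 higher, with Il17a and Il17f among the lower ones, at log2 fold changes of −1.65 and −1.28, the call of Il17f being lost in 3 of 6 leave-one-out fits. For comparison with this and the other marker lists, 22.9% of all genes tested were called lower and 23.2% higher. Marker lists for B cells, erythroid cells and fibroblasts summed to less than 3.1 CPM in each library. The 7 myeloid markers summed to 2.68 to 5.75 CPM in control and 17.5 to 27.8 CPM in KO, most of it Cd68. Of the 3 that could be tested 2 were called higher, Cd68 (log2 fold change 2.66) and Csf1r (1.72, a call lost in 4 of 6 leave-one-out fits). The third, Fcgr3, went the other way, from a mean of 0.545 CPM in control to 0.211 CPM in KO. It was not called (−1.33, edgeR adjusted p = 0.0536), though the groups did not overlap. Lyz2 and Itgax were at most 0.0950 and 0.0608 CPM in control and 0.294 to 1.75 and 0.305 to 0.759 CPM in KO, and Itgam and Adgre1 stayed below 0.2 CPM in every library. Another gene overlaps 68.7% of the exonic bases of Itgam and 15.1% of those of Csf1r, so the counts of these genes are uncertain. The 6 CD8 and NK markers summed to 10.8 to 15.1 CPM in control and 15.1 to 16.2 CPM in KO, with 1 of 4 tested called higher (Eomes, 0.0608 to 0.165 CPM in control and 1.09 to 2.24 CPM in KO) and Ncr1 and Klrb1c at 0 throughout. Cd8a, Cd8b1 and Klrd1 were tested and not called, at log2 fold changes of 0.68, −0.31 and 0.47 (edgeR adjusted p = 0.253, 0.373 and 0.301). The part of such cells in the transporter results was not tested. Y-linked genes gave 11376 counts in control replicate 3 and 5147 in KO replicate 3, and at most 3 in the other libraries.

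Of the 10 transporter genes 8 were lower in KO and none was higher, at an adjusted p under 0.05 in edgeR's quasi-likelihood test over all 14268 genes. Across all genes tested 22.9% were called lower and 23.2% higher, 46.1% in all. The median log2 fold change of the 10 was −0.73, against 0.013 for all genes tested. Slc7a11, Slc1a4, Slc43a1, Slc7a5 and Slc7a1 fell to between 14.1% and 49.4% of control, and Slc1a5, Slc38a2 and Slc3a2 to between 73.9% and 78.9%. Slc38a1 and Slc7a6 were not called. Leaving out any library other than control replicate 3 left 5 of the 10 called lower, as did scaling by library size alone, and these were the 5 with the larger decreases. In the 8 called genes every KO library lay below every control library, a separation of the groups, in either direction, that 57.9% of all genes tested showed. Since these are bulk samples, fewer cells of a type and less RNA per cell cannot be told apart.

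**Figure D1:**
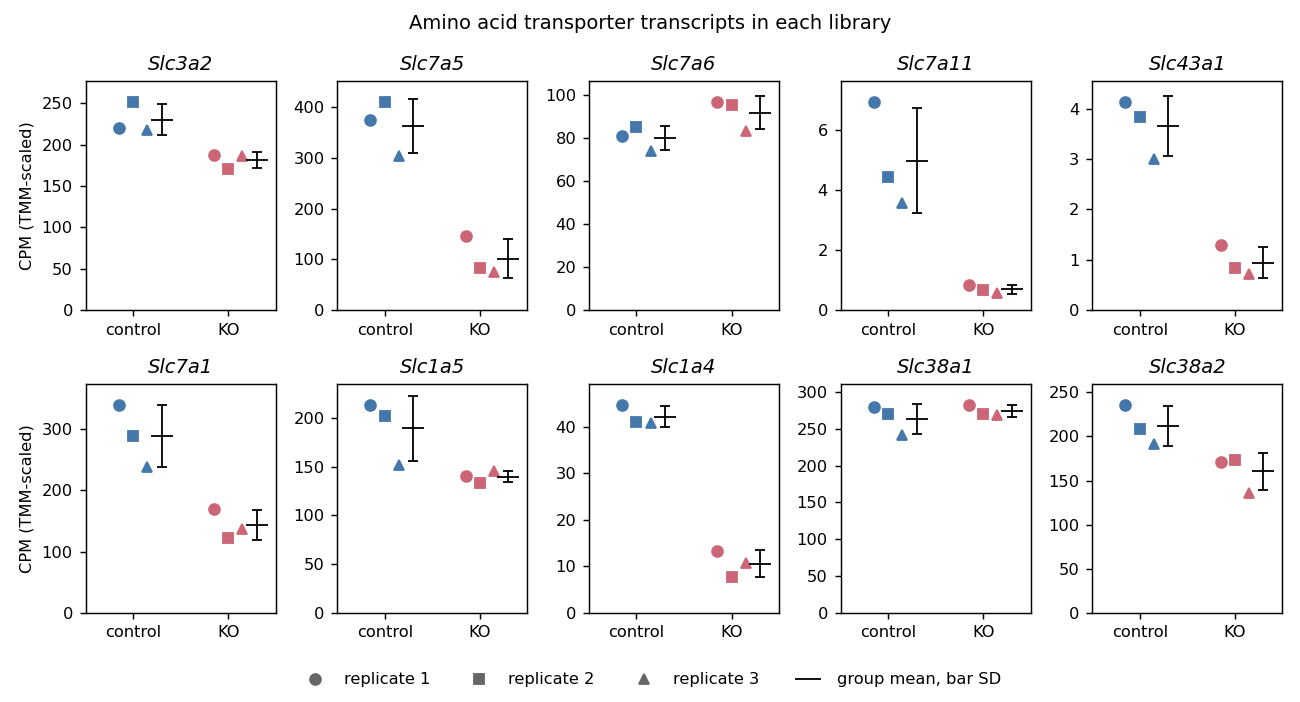
Level of each transporter gene in CPM (vertical axes, each from 0) in the 3 control and 3 KO libraries. Symbols give the replicate number, and the black line and bar give the group mean and SD. The KO libraries lie below all control libraries in 8 panels, and the groups overlap in those of Slc7a6 and Slc38a1.

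Promoters were available for 7 of the 10 genes, from RefSeq (GRCm38.p6; 250 bases before to 50 after the annotated start site), and not for Slc7a5, Slc1a5 and Slc38a1. The letters TGATGNAA, the core of the amino acid response element bound by ATF4, were found on either strand in 2 of them, Slc7a11 and Slc1a4, against 3.97% of 32851 mouse promoters of that length. Their promoters are shown, as those with a match, 5′ to 3′ along the gene, with the matches in capitals. The Slc7a11 promoter (chr3:50443564-50443863, minus strand) holds a match on the gene's own strand that begins 66 bases before the start site and another on the opposite strand that begins 47 bases before it, and 0.0700% of all promoters hold 2 or more.
Slc7a11: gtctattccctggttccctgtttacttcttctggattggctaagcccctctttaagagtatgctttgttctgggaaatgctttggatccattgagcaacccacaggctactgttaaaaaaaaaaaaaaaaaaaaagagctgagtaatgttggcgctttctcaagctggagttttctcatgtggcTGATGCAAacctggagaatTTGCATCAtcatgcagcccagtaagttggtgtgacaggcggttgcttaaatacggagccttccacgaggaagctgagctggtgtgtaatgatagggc
The Slc1a4 promoter (chr11:20332664-20332963, minus strand) holds a match on the opposite strand that begins 4 bases before the start site and runs across it.
Slc1a4: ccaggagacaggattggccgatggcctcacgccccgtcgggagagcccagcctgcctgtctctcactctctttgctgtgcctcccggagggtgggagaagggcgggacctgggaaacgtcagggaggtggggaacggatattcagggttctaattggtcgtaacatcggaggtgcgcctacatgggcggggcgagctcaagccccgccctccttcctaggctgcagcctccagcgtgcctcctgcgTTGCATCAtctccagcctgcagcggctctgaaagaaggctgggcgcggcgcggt
The E-box CACGTG, which MYC and related factors bind, was found in 1 of the 7 genes, Slc43a1, and in 7.15% of all promoters. The antioxidant response element TGACNNNGC, bound by NRF2, was found in 4 of the 7 (Slc43a1, Slc7a1, Slc7a6 and Slc38a2) and in 12.4% of all promoters, and none of its matches overlapped those of the other motifs. For each motif a gene was counted if any of its promoters held a match, and Slc7a1 and Slc7a6 had more than 1 promoter. The shares of all promoters instead count each of the 32851 promoters, which belong to 27025 genes, so the units differ. A match describes the letters only, and binding was not measured here.

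The heavy chain gene Slc3a2 (chr19:8706882-8723369, minus strand; positions of genes are those of GENCODE M21 on GRCm38) fell to 78.9% of control. Control replicates 1, 2 and 3 held 220.5, 252 and 218 CPM of Slc3a2, against 188, 170.4 and 186 CPM in the KO replicates. The groups did not overlap, and control replicate 2 was the highest library. The means were 230.0 ± 18.7 and 181 ± 9.55 CPM (SD, n = 3), and the log2 fold change was −0.34 (SE 0.113, 95% interval −0.60 to −0.09, edgeR adjusted p = 0.0346). This call was lost in 5 of 6 leave-one-out fits (all but that without control replicate 3) and when only library size was scaled for (−0.25, adjusted p = 0.0813).

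The light chain with the most transcript per exon length was Slc7a5 (LAT1; chr8:121881150-121907694, minus strand), which exchanges leucine and other large neutral amino acids, and it fell to 28.0% of control. Slc7a5 held 374, 409.9 and 304 CPM in the control replicates and 145, 83.0 and 75.6 CPM in the KO replicates. All KO libraries were far below the controls, and KO replicate 1 stood above the other KO libraries. The log2 fold change of Slc7a5 was −1.84 (SE 0.249, edgeR adjusted p = 0.000781), from 363 ± 53.9 to 101 ± 38.3 CPM (SD, n = 3), and it ranged from −2.20 to −1.67 over the 15 other fits, each of which called it lower.

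Slc7a6 (y+LAT2; chr8:106168857-106198706, plus strand) is another light chain, which exchanges cationic amino acids for neutral ones together with sodium. It held 80.9, 85.1 and 74.1 CPM in control and 96.9, 95.7 and 83.2 CPM in KO, so that KO replicate 3 fell within the control range. The difference for Slc7a6 was 0.20 on the log2 scale (SE 0.113, 95% interval −0.06 to 0.46, edgeR adjusted p = 0.175), and no fit called it. Within each replicate number the KO library was higher, by 0.26, 0.17 and 0.17.

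Slc7a11 (xCT; chr3:49892526-50443614, minus strand), the light chain that imports cystine in exchange for glutamate and so supplies cysteine for glutathione, was the least abundant of the 10 per exon length. It held 6.93, 4.42 and 3.56 CPM in control and 0.835, 0.668 and 0.559 CPM in KO. The KO values rest on 22, 25 and 11 counts, and those of control on 114, 214 and 150. The log2 fold change of Slc7a11 was −2.83 (SE 0.364, edgeR adjusted p = 0.000635), the largest decrease among the 10, and all 15 other fits called it, between −3.06 and −2.60.

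The other known light chains of SLC3A2 contributed little. Slc7a7 (y+LAT1), which carries the same substrates as Slc7a6, held 1.64 to 2.35 CPM in control and 1.59 to 3.05 CPM in KO and was not called (log2 fold change 0.36, 95% interval −0.43 to 1.14, edgeR adjusted p = 0.422). Slc7a8 (LAT2) had 2 to 7 counts per control library and 5 to 16 per KO library and did not pass the filter, and Slc7a10 had no count in any library.

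The make-up of the light chain transcripts was computed from RPKM, the CPM divided by the length of all annotated exons in kilobases, and is given as a description with no test. Slc7a5 made up 84.4%, 85.0% and 82.7% of the summed light chain RPKM in the control replicates and 64.2%, 50.6% and 51.5% in the KO replicates. Slc7a6 made up 14.8%, 14.3% and 16.3% in control and 34.7%, 47.3% and 45.9% in KO. The ratio of Slc7a5 to Slc7a6 was 5.70, 5.94 and 5.06 in control and 1.85, 1.07 and 1.12 in KO. The summed light chain RPKM averaged 116 ± 15.7 over the control and 48.3 ± 11.3 over the KO libraries (SD, n = 3), while the RPKM of Slc3a2 was 65.2 ± 5.30 and 51.4 ± 2.71. The heavy chain thus stood at 0.564 ± 0.0520 of the light chain sum in control and at 1.10 ± 0.229 in KO. With the length of the longest principal transcript in place of all exons, a choice made after seeing the data, these ratios were 1.01 and 1.88, and the share of Slc7a5 was 81.8% and 51.7%. Slc7a5 over Slc7a6 was then 4.93, 5.14 and 4.38 in control and 1.60, 0.925 and 0.970 in KO. Which of these genes was higher in KO replicates 2 and 3 thus depends on the length used. The level of the heavy chain ratio depends on it as well, and the rise of that ratio was found with both lengths.

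**Figure D2:**
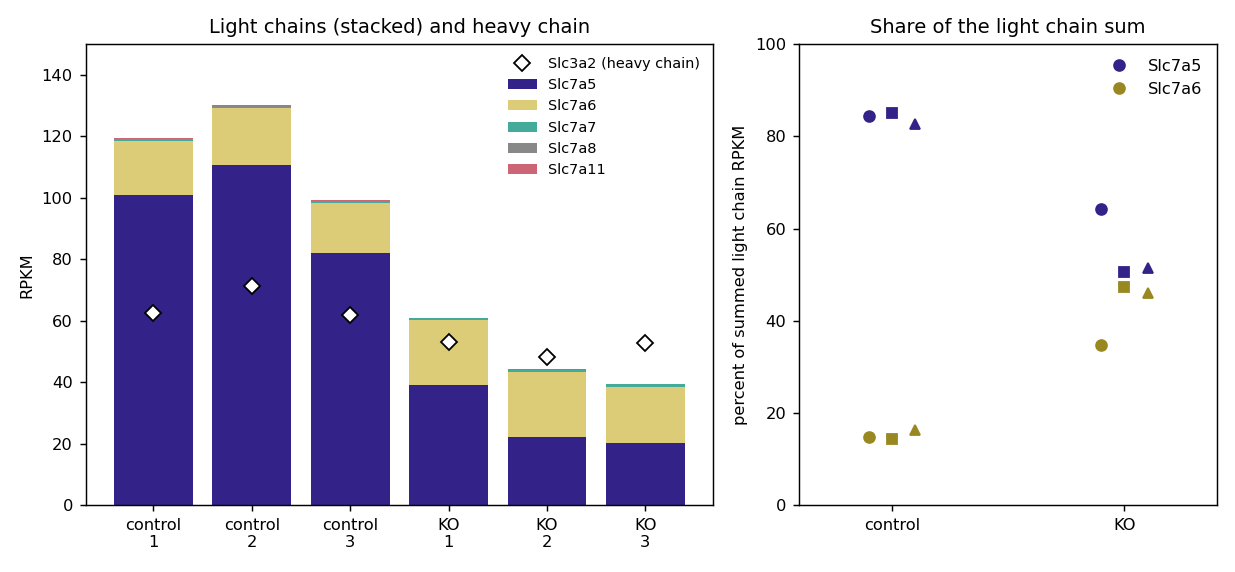
Left, RPKM of the light chains Slc7a5, Slc7a6, Slc7a7, Slc7a8 and Slc7a11 stacked for each library, with the heavy chain Slc3a2 as diamonds (Slc7a10 had no count). Right, share of Slc7a5 and Slc7a6 in the light chain sum in percent, by replicate. The Slc7a5 part shrinks from 82.7% or more to 64.2% or less while the Slc7a6 part keeps a similar height, and the diamonds move from well below the bars to near or above their tops.

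Slc43a1 (LAT3; chr2:84838850-84863594, plus strand) carries large neutral amino acids by facilitated diffusion, without a heavy chain. Slc43a1 held 4.13, 3.84 and 2.99 CPM in control and 1.29, 0.828 and 0.712 CPM in KO, on 14 to 34 counts per KO library. No KO library reached the control range, and its log2 fold change was −1.94 (SE 0.338, edgeR adjusted p = 0.00227). That is 26.1% of control, beside 28.0% for Slc7a5, while Slc7a6, whose neutral substrates include leucine, was not called.

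Slc7a1 (CAT1; chr5:148327410-148399904, minus strand), a uniporter of arginine and lysine, fell to 49.4% of control. Slc7a1 held 341, 289 and 239 CPM in control and 170.0, 122 and 137 CPM in KO, with control replicate 3 the lowest control and KO replicate 1 the highest KO library. The log2 fold change of Slc7a1 was −1.02 (SE 0.171, edgeR adjusted p = 0.00197), from 289 ± 50.9 to 143 ± 24.5 CPM (SD, n = 3), and all 15 other fits called it.

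SLC1A4 and SLC1A5, of the SLC1 family, are sodium-dependent exchangers of small neutral amino acids. Slc1a4 (ASCT1; chr11:20302180-20332713, minus strand), which carries alanine, serine and cysteine, held 44.7, 41.1 and 40.7 CPM in control and 13.4, 7.58 and 10.7 CPM in KO. The control libraries lay close together, and every KO library was below 14 CPM. The log2 fold change of Slc1a4 was −2.00 (SE 0.204, edgeR adjusted p = 0.000251), from 42.2 ± 2.25 to 10.5 ± 2.89 CPM (SD, n = 3), and all 15 other fits called it.

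Slc1a5 (ASCT2; chr7:16781340-16798274, plus strand), which also carries glutamine, changed less than Slc1a4. Slc1a5 held 214, 202 and 152 CPM in control and 141, 134 and 145 CPM in KO. KO replicate 3 lay just below control replicate 3, and the log2 differences within replicate numbers 1, 2 and 3 were −0.60, −0.60 and −0.06. The log2 fold change of Slc1a5 was −0.44 (SE 0.143, 95% interval −0.76 to −0.11, edgeR adjusted p = 0.0336). The call was lost in 5 of 6 leave-one-out fits (all but that without control replicate 3) and when only library size was scaled for (−0.35, adjusted p = 0.0749). The RPKM ratio of Slc1a5 to Slc1a4 was 3.51 to 4.64 in control and 9.91 to 16.6 in KO, with no overlap.

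SLC38A1 and SLC38A2, of the SLC38 family, import glutamine, alanine and other neutral amino acids together with sodium. Slc38a2 (SNAT2; chr15:96687392-96699730, minus strand) and Slc38a1 (SNAT1; chr15:96571418-96642913, minus strand) lie 44.5 kb apart. Slc38a2 held 236, 208 and 192 CPM in control and 171, 173 and 136 CPM in KO, without overlap. Its log2 fold change was −0.40 (SE 0.137, 95% interval −0.71 to −0.09, edgeR adjusted p = 0.0390), a call that was lost in 5 of 6 leave-one-out fits (all but that without control replicate 3), when only library size was scaled for (−0.32, adjusted p = 0.103) or with the libraries numbered 1 and 2 alone (−0.37, adjusted p = 0.0512).

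Slc38a1 held 280.4, 269.8 and 241 CPM in control and 283, 270.2 and 268 CPM in KO. The groups overlapped, and the log2 difference was 0.055 (95% interval −0.20 to 0.31, edgeR adjusted p = 0.713). The sign of the difference turned without control replicate 3 (−0.062), and no fit called it. The RPKM ratio of Slc38a1 to Slc38a2 was 0.609 to 0.666 in control and 0.799 to 1.01 in KO.

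**Figure D3:**
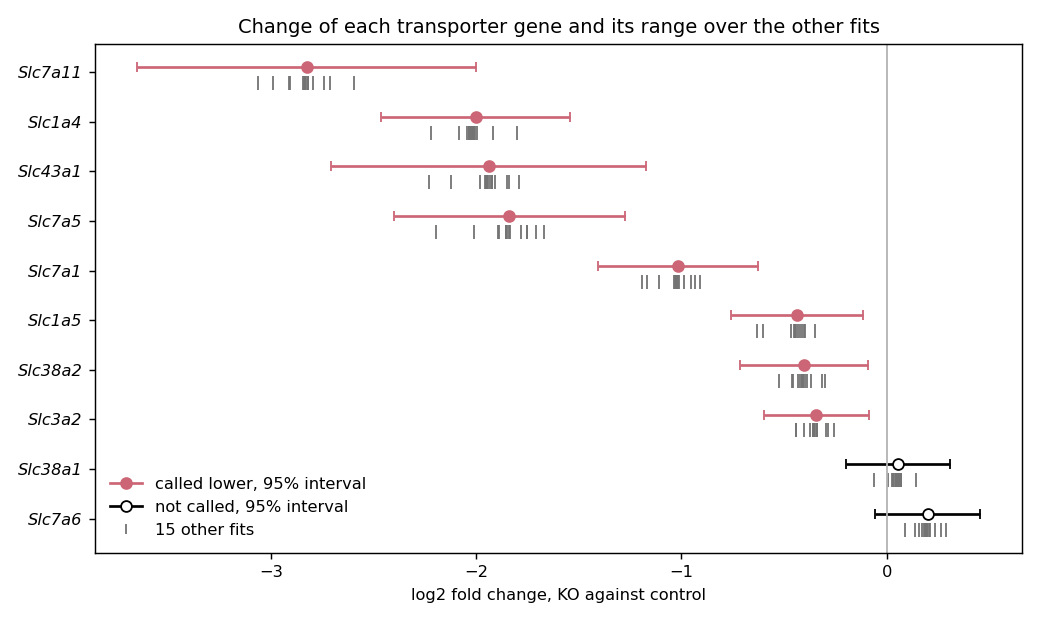
Log2 fold change of KO against control for each gene, with its 95% interval (filled red, called lower; open, not called), and the values from 15 other fits as grey ticks below it. The 5 largest decreases stay below −0.9 in every fit, while Slc1a5, Slc38a2 and Slc3a2 lie between −0.63 and −0.25.

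Per exon length the order of the control levels ran from Slc7a5 (97.8 ± 14.5 RPKM) over Slc3a2 (65.2 ± 5.30), Slc1a5 (45.4 ± 7.94), Slc7a1 (25.1 ± 4.42), Slc38a2 (24.0 ± 2.55), Slc7a6 (17.5 ± 1.22), Slc38a1 (15.3 ± 1.18) and Slc1a4 (10.7 ± 0.573) to Slc43a1 (0.640 ± 0.104) and Slc7a11 (0.357 ± 0.126; SD, n = 3). The libraries of Slc7a1 and Slc38a2 overlapped, as did those of Slc7a6 and Slc38a1. In KO the order began with Slc3a2 (51.4 ± 2.71 RPKM) and Slc1a5 (33.5 ± 1.38), followed by Slc7a5 (27.3 ± 10.3), Slc7a6 (20.1 ± 1.66), Slc38a2 (18.1 ± 2.36), Slc38a1 (15.9 ± 0.472), Slc7a1 (12.4 ± 2.13), Slc1a4 (2.68 ± 0.737), Slc43a1 (0.165 ± 0.0536) and Slc7a11 (0.0494 ± 0.00999). From Slc1a5 down to Slc38a1 each gene overlapped its neighbour in this order. With the principal transcript length Slc3a2 came first in both groups and Slc7a5 moved from the second place in control to the fifth in KO. Across the 10 genes the levels summed to 1678 ± 184 CPM in control and to 1104 ± 92.9 CPM in KO (SD, n = 3), or 65.8% of control.

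**Figure D4:**
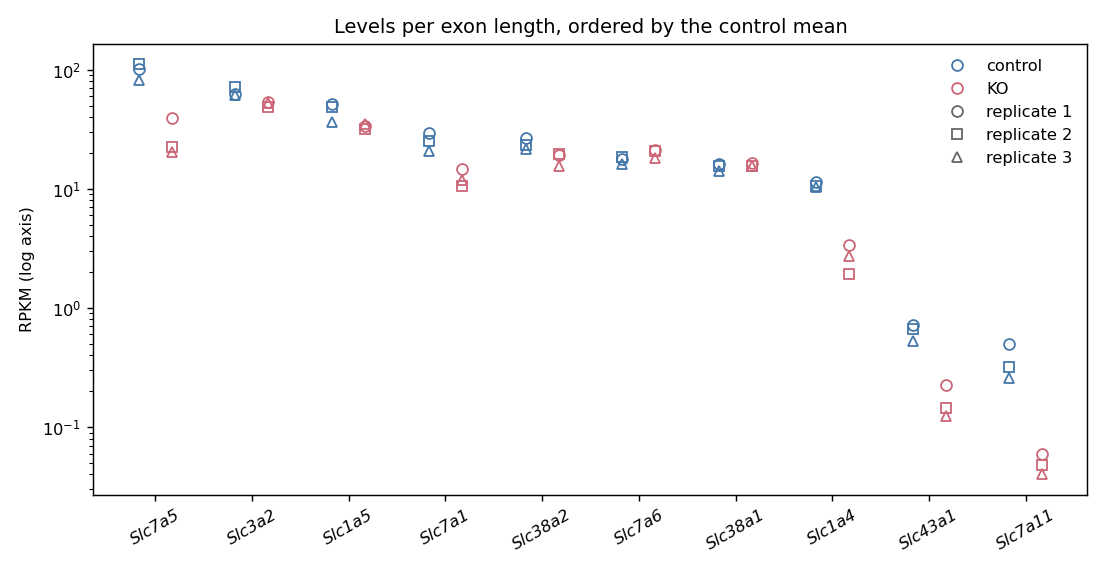
RPKM of each gene (log axis) in every library, ordered by the control mean over all annotated exons; symbols give the replicate number. Slc7a5 is at the top in control, and its KO mean lies below those of Slc3a2 and Slc1a5 only. Slc43a1 and Slc7a11 lie below 1 RPKM in both groups.

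The libraries of a group deviated in a shared way across the 10 genes. Control replicate 3 was the lowest control library for all 10. KO replicate 1, which held the most Rtf1 transcript of the KO libraries (45.3 CPM against 30.4 and 26.2), was the highest KO library for 8 of the 10 and for 6 of the 8 called lower. Without KO replicate 1 the log2 fold change of Slc7a5 was −2.20 and that of Slc1a4 −2.22. The part of the remaining Rtf1 transcript in these values was not tested. With the libraries numbered 1 and 2 alone, which leaves out the libraries with Y-linked counts, 7 of the 10 genes were called lower and none higher.

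The other plasma membrane amino acid transporters moved in both directions. Of 20 listed genes 10 could be tested, with a median log2 fold change of 0.16. Among these 3 were called lower and 4 higher, against 22.9% and 23.2% of all genes tested. Slc7a3 (CAT3), a relative of Slc7a1 that also carries cationic amino acids, fell from 14.8 ± 1.33 to 2.17 ± 0.0602 CPM (mean ± SD of 3 libraries; log2 fold change −2.77, SE 0.192, edgeR adjusted p = 6.8e-05). Slc43a2 (LAT4), a relative of Slc43a1, fell from 47.1 ± 2.58 to 21.9 ± 2.08 CPM (−1.10, adjusted p = 0.000435). Slc6a9, a glycine transporter, fell from 9.06 ± 0.619 to 1.25 ± 0.629 CPM (−2.85, adjusted p = 0.000521), but 30.2% of its exonic bases overlap other genes and its counts are uncertain. Slc16a10 (TAT1), a carrier of aromatic amino acids, rose from 35.6 ± 8.96 to 61.5 ± 17.7 CPM (0.80, adjusted p = 0.0284), a call that was lost in 5 of 6 leave-one-out fits (all but that without KO replicate 3). The other 3 called higher, Slc1a1, Slc1a2 and Slc3a1, stayed below 5 CPM in every library, and the call of Slc3a1 was lost in 3 of 6 leave-one-out fits. The median of 0.16 includes these 3 low genes, at log2 fold changes of 3.59, 4.65 and 1.95, and so depends on them. Another gene overlaps 31.9% of the exonic bases of Slc1a1 and 26.5% of those of Slc3a1, so their counts are uncertain too.

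Transporters of the lysosome return amino acids from degraded protein to the cytosol. Of 8 tested genes 4 were called higher and 1 lower, against 23.2% and 22.9% of all genes tested. The median log2 fold change of the 8 was 0.35. Ctns, the cystine exporter of the lysosome, rose from 9.90 ± 0.656 to 20.5 ± 1.55 CPM (mean ± SD of 3 libraries; log2 fold change 1.05, SE 0.147, edgeR adjusted p = 0.000865), and Slc66a1 (listed as Pqlc2), which exports cationic amino acids, from 8.13 ± 0.901 to 15.6 ± 1.21 CPM (0.95, adjusted p = 0.00235). Slc38a9, which reports lysosomal arginine to mTORC1 (0.52, adjusted p = 0.0364), and Slc15a4 (0.40, adjusted p = 0.0330) were called higher, but leaving out 1 library ended the call in 5 of 6 fits for Slc38a9 (all but that without control replicate 3; 0.35 without control replicate 2) and in all 6 for Slc15a4. Slc36a4 fell from 30.7 ± 3.02 to 17.0 ± 1.12 CPM (−0.85, adjusted p = 0.00159). Of 8 mitochondrial carriers 2 were called higher and 1 lower, against 23.2% and 22.9% of all genes tested. Slc25a13, which exchanges aspartate for glutamate, fell from 39.1 ± 7.30 to 17.2 ± 3.47 CPM (−1.18, adjusted p = 0.00178). Slc25a44, a carrier of branched-chain amino acids, rose from 21.7 ± 1.87 to 31.4 ± 2.66 CPM (0.54, adjusted p = 0.0111), though not without control replicate 1 or without KO replicate 2. The other called higher, Slc25a18, averaged less than 5 CPM over all libraries and rose from 1.64 ± 0.631 to 7.83 ± 0.265 CPM (2.28, adjusted p = 0.00108).

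Known regulators of these transporters were listed as well. Of 14 tested genes 7 were called lower and 2 higher, against 22.9% and 23.2% of all genes tested. The median log2 fold change of the 14 was −0.33. Atf4 held 396, 455 and 309 CPM in control and 161, 133 and 138 CPM in KO (−1.43, SE 0.163, edgeR adjusted p = 0.000401). Trib3, a target of ATF4, fell to 27.6% of control (−1.86, adjusted p = 0.00012). Myc, which promotes transporter expression in activated T cells, held 280.5, 315 and 339 CPM in control and 192, 171 and 199 CPM in KO (−0.73, SE 0.123, adjusted p = 0.00193).

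Nfe2l2, which encodes NRF2, an activator of Slc7a11, rose from 57.3 ± 12.5 to 113 ± 21.4 CPM (mean ± SD of 3 libraries; log2 fold change 0.98, SE 0.190, edgeR adjusted p = 0.0037), and Bach1, which encodes a repressor at antioxidant response elements, rose from 8.61 ± 0.722 to 21.8 ± 3.43 CPM (1.34, adjusted p = 0.000595). Nedd4l, a ubiquitin ligase that acts on membrane transporters, fell from 13.3 ± 1.60 to 5.19 ± 0.876 CPM (−1.36, adjusted p = 0.00115), and Hif1a fell to 47.9% of control (−1.06, adjusted p = 0.00197). The part of any of these regulators in the transporter values was not tested.

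**Figure D5:**
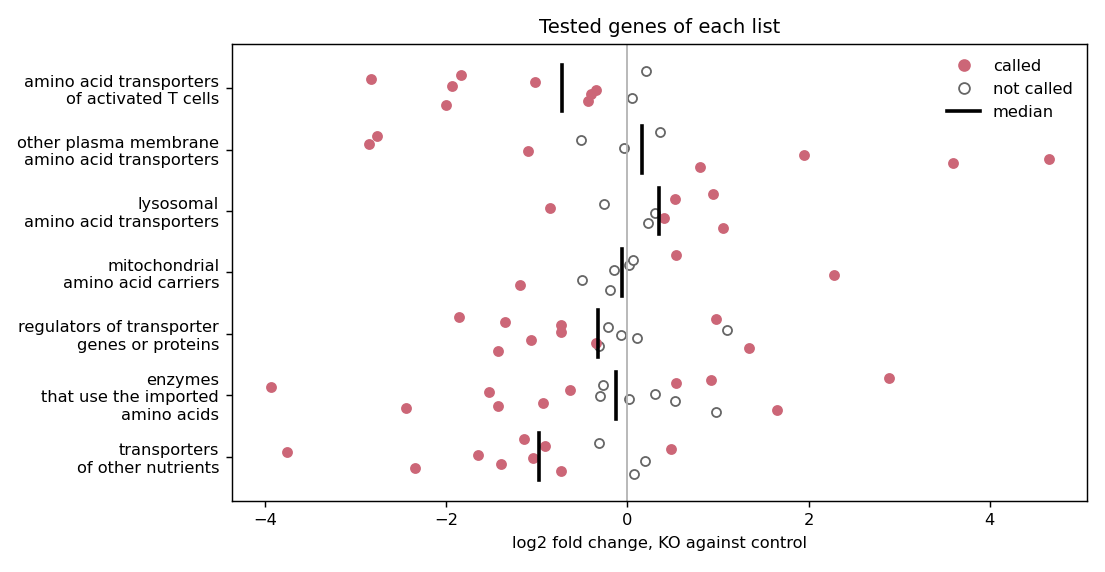
Log2 fold change of KO against control for the tested genes of each list (filled, called; open, not called), with the median as a black line. The median lies at −0.73 for the 10 transporters, at 0.16 for the other plasma membrane transporters and at 0.35 for the lysosomal ones. It lies at −0.06 for the mitochondrial carriers, at −0.33 for the regulators and at −0.13 for the enzymes. For the transporters of other nutrients it lies at −0.97, below that of the 10.

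Enzymes that use the imported amino acids were listed too. Of 16 tested genes 6 were called lower and 4 higher, against 22.9% and 23.2% of all genes tested. The median log2 fold change of the 16 was −0.13. Asns, asparagine synthetase, held 166, 175 and 151 CPM in control and 40.6, 25.6 and 24.4 CPM in KO (−2.44, SE 0.199, edgeR adjusted p = 0.000116). Bcat1, which transaminates leucine, isoleucine and valine in the cytosol, fell from 131 ± 39.0 to 48.5 ± 23.1 CPM (mean ± SD of 3 libraries; log2 fold change −1.43, adjusted p = 0.00805), and Gls2, a glutaminase, from 41.1 ± 2.89 to 14.2 ± 2.39 CPM (−1.53, adjusted p = 0.000251). Nos2, which makes nitric oxide from arginine, fell to 6.53% of control (−3.94, adjusted p = 0.000935), with control replicate 3 at 55.5 CPM against 16.4 and 18.9 CPM in the other control libraries. Sptlc1 and Sptlc2, subunits of the enzyme that joins serine to palmitate, rose by 0.53 (adjusted p = 0.00688) and 0.92 (adjusted p = 0.001) on the log2 scale, the former not without control replicate 1. Gclc, the catalytic subunit of glutamate-cysteine ligase, which uses the cysteine that Slc7a11 supplies, held 24.8 to 34.9 CPM in KO and 28.6 to 34.5 CPM in control and was not called (0.017, adjusted p = 0.941), its sign turning with the library left out. Of the other listed genes of glutathione synthesis, Gclm was not called (−0.30, edgeR adjusted p = 0.137). Gss was called lower, at 64.3% of control (−0.64, adjusted p = 0.00952), without overlap of the groups. Other genes overlap 15.4% of the exonic bases of Gss.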

How the data were processed

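RNA of 6 cultures of mouse Th17 cells was sequenced, 3 control and 3 KO, with groups and numbers read from the titles. The values the authors deposited are raw counts for each gene symbol, whole numbers with a different total in every column. The submitters' processing notes name STAR, featureCounts, DESeq2 and the build mm10, without versions. Annotation and strand setting are not given in the sources used here. Every column was matched to a sample (0 unmatched). Labels do not say whether replicates came from separate mice, so p-values measure the spread between these libraries. Intervals and spreads cover no error before counting.

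KO was compared with control by edgeR's quasi-likelihood method (version 4.0.16, R 4.3.3) with TMM factors and no covariate, after filterByExpr with the 2 groups. The 14268 genes kept held 99.9% of counts. P-values were adjusted over all of them by Benjamini-Hochberg, with calls under 0.05. The SE is the absolute log2 fold change over the square root of F. The script was tested on simulated data. Exon lengths, positions and overlaps came from GENCODE M21 (GRCm38, the assembly mm10). The share of 50-base stretches that occur in another gene's transcripts was at most 4.23% for the 10 transporter genes, and none shared exonic bases with another gene. Promoters came from RefSeq.

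The members and the gene lists were chosen with earlier results of these data known. Named are all members, Rtf1, the light chains of SLC3A2, Atf4, Myc, Nfe2l2, and from each other list called genes that averaged 5 CPM or more, at most 4 increases and 4 decreases by size. Gclc, Gclm, Gss, Ddit3, Tfrc and low genes named outside this rule were chosen after their values were seen, as were markers named with values. Equal replicate numbers deviated together (correlations across genes of 0.27, 0.13 and 0.379), and were read as pairs, although their meaning is not given. Control replicate 2 correlated more with KO replicate 1 (0.204). Alternatives were other scalings (library size only, upper-quartile factors, size factors of DESeq2, TMM without the 50 most counted genes), DESeq2 1.42.0, no filter, a mean count of at least 10, the replicate number as a block, libraries numbered 1 and 2 only, and leaving out each library.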

Additional observations from a re-analysis of the deposited data

How the results depend on the processing

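Under all 15 alternatives Slc7a5, Slc7a11, Slc1a4, Slc7a1, Slc43a1 and Rtf1 kept their direction and their call. The number of the 10 transporters called lower was 8; it was 5 when only library size was scaled for, and 5 to 8 when 1 library was left out (5 without any library other than control replicate 3, and 8 without that library). The calls lost in these fits were those of Slc3a2, Slc1a5 and Slc38a2, and fewer libraries were then tested; for the scaling the cause was not tested. Slc3a2 was also not called without a filter on low counts (−0.36, adjusted p = 0.0521). Slc38a2 was not called with the libraries numbered 1 and 2 alone, Slc38a9 not with upper-quartile factors (0.50, adjusted p = 0.0601), and Slc15a4 neither without a filter nor with those libraries. No member was called higher in any fit. Slc38a1 ranged from −0.062 to 0.069 when 1 library was left out and turned sign without control replicate 3; the cause was not tested. With the replicate block 8 transporters were called lower, 0 higher and 7628 genes in all against 6574. Fcgr3, Cd8a, Cd8b1, Klrd1, Slc25a18, Ddit3, Gclm and Gss were not followed over the alternatives. The block changed no call of any other tested gene named here. Gclc, not called in any fit, was at −0.00052 with upper-quartile factors and between −0.10 and 0.15 when 1 library was left out; the cause of its change of sign was not tested. The count of all genes called lay between 4460 (without KO replicate 2) and 7050 (without control replicate 3) when 1 library was left out, and scaling by library size alone shifted the median of all genes from 0.013 to 0.10. Among the 10 transporters Slc7a11 and Slc43a1 had the fewest counts, 11 to 34 per KO library.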

Other observations

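Transporters of other nutrients were measured in the same libraries. Of 12 tested genes 8 were called lower and 1 higher in KO, with a median log2 fold change of −0.97, where 22.9% of all genes tested were called lower and 23.2% higher. The glucose transporter gene Slc2a1 held 314, 328 and 215 CPM in control and 99.4, 89.5 and 84.2 CPM in KO (−1.65, SE 0.172, edgeR adjusted p = 0.000272). Its relative Slc2a3 held 157, 168 and 464 CPM in control and 17.7, 20.8 and 20.0 CPM in KO (−3.76, SE 0.415, adjusted p = 0.000355), with control replicate 3 far above the other controls. The lactate exporter gene Slc16a3 fell to 19.7% of control (−2.34, adjusted p = 9.8e-05), and Slc19a1, the reduced folate carrier, to 38.1% (−1.39, adjusted p = 0.00553). Slc39a6, a zinc importer, rose from 82.4 ± 3.42 to 116 ± 17.5 CPM (SD, n = 3; 0.49, adjusted p = 0.0141), a call that did not hold without control replicate 1 or without KO replicate 3. Tfrc, the transferrin receptor, named after its values were seen, held 1399 to 1772 CPM in control and 587 to 926 CPM in KO (−1.14, adjusted p = 0.00181).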
